A study of Mus musculus with 2 samples.

Results

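The genes described here run apoptosis, the caspase-driven form of programmed cell death, and necroptosis, a lytic form driven by the kinases RIPK1 and RIPK3. They were taken from the deposited table by symbol and gene type: all caspase genes, all genes whose symbol begins with Bcl2, all numbered Birc genes (inhibitor of apoptosis proteins), and further named genes of the BCL2 family, the apoptosome and the death complexes. The rule found 48 protein-coding genes among 22388 mRNA genes and 35529 genes in all. RNA from 2 groups of C57BL/6 wild-type mice was compared: normal colon of animals that received neither agent, and colon adenomas that arose after azoxymethane (AOM), which mutates DNA in colon cells, and dextran sodium sulfate (DSS), which damages the colon lining. RNA of 6 individuals was pooled in each group and sequenced as 1 library, so there is no replicate, no test and no p-value for any difference below. Age, sex and dosing are not given in the sources used here. Both libraries are of whole tissue, in which fewer cells of a type and less RNA per cell cannot be told apart.

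Apoptosis is carried out by executioner caspases, proteases that are cut into their active form by initiator caspases. On the mitochondrial route, the effectors BAX and BAK1 open the outer membrane and release cytochrome c, which assembles the apoptosome around APAF1. Anti-apoptotic BCL2 proteins hold the effectors back, and the BH3-only proteins counter them. On the receptor route, FADD and caspase 8 form a complex that CFLAR restrains, and where caspase 8 is inactive RIPK1 and RIPK3 can pass the signal to MLKL, which ruptures the plasma membrane. Colonic epithelium renews itself continuously and sheds its oldest cells, and resistance to cell death is a common trait of tumours.

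Levels are RPKM, read numbers corrected for gene length and for the depth of the library, which is meant to make genes comparable. A trend with length remained between the pools, as given below. A gene was counted as higher or lower when (adenoma RPKM + 1)/(control RPKM + 1) reached 2-fold in either direction, among genes that reached 1 RPKM in one pool or both. The pseudocount makes that scale understate the change of genes with low values. Folds printed beside levels are plain ratios of RPKM, and the ranges after them are exact 95% binomial intervals from read numbers recovered or estimated from the RPKM. These intervals cover counting error only and say nothing of the differences between animals or library preparations.

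The 2 libraries held 29548883 reads (control) and 33174626 reads (adenoma). Across the mRNA genes the log2 fold change fell with transcript length, from a median of 0.85 in genes of at most 1039 bases to -0.78 in those of 6369 bases or more. Moves in rank among the members and ratios between genes of unlike length hold this trend. The RPKM of the adenoma pool also summed to more (828667 against 629215). Each member's log2 fold change is therefore given as deposited, and, where it alters the reading, also with the length trend subtracted or with both pools rescaled to equal sums. Rescaling to equal sums moved the median of the mRNA genes by -0.32, and scaling by the median ratio moved it by 0.18. Epithelial markers were abundant in both pools, with Epcam at 752 and 646 RPKM, but 4 of 8 (Cdh1, Krt20, Vil1 and Cdx2) were lower in the adenoma pool and their summed level was 9217 against 5868 RPKM. The share of epithelium, muscle and immune cells in each pool was not measured.

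Bcl2a1b had the greatest log2 difference of the members as deposited (2.46). It is 1 of 4 copies on mouse chromosome 9 of a BCL2-like survival gene that is expressed mainly in blood cells. The start of the coding sequence is shown because the copies are so alike that short reads can match several of them. These are coding bases 1 to 120 of the 3 copies with the longer reading frame, 5′ to 3′, from the GENCODE M21 transcripts (GRCm38), with capitals at the 7 positions where the copies differ.

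Bcl2a1a: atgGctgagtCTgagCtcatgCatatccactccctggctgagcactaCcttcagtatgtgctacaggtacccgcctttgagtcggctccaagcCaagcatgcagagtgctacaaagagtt
Bcl2a1b: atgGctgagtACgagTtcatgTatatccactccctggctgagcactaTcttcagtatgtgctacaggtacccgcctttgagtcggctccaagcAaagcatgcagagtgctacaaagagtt
Bcl2a1d: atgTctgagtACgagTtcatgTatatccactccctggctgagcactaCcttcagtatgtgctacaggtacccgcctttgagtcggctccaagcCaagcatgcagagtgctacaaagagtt

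Over all 519 coding bases these copies differ at 12 positions. Bcl2a1a and Bcl2a1b are 97.88% identical, and Bcl2a1b and Bcl2a1d are 98.84% identical. Of the 50-base stretches of each transcript, 69.0% in Bcl2a1a, 57.6% in Bcl2a1b and 79.5% in Bcl2a1d also occur in another copy. The recovered read numbers of these copies were not whole, as happens when a read is divided among several matching genes. This is not particular to them, as Bax (1303.27 control reads) and Casp6 (3434.25 adenoma reads) show it too. How the authors counted reads that match several genes is not stated in any label or header. The levels of the single copies are thus uncertain, while their sum depends little on how reads were shared among the 4 copies.

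The 4 Bcl2a1 copies together were at 9.82 RPKM in normal colon and 59.2 RPKM in the adenoma pool, 6.03-fold higher (5.23 to 6.95). Bcl2a1b (9:89199209-89207827) held the most, with 5.01 against 32.0 RPKM, 6.39-fold higher (5.24 to 7.85). Bcl2a1d (9:88723285-88731914) was at 2.68 and 15.8 RPKM, 5.90-fold higher (4.52 to 7.82). Each of these copies was higher in the adenoma pool by about the factor of the sum, but together they make up most of that sum. Reads that match several copies can also make the folds alike, so this is no separate result. Bcl2a1a (9:88956900-88962419) was at 2.11 and 11.1 RPKM, 5.25-fold higher (3.87 to 7.24). The shorter copy Bcl2a1c was at 0.0191 and 0.306 RPKM, from 0.25 and 4.5 reads, and no fold is given. With the length trend subtracted, the log2 difference was 1.45 for Bcl2a1b, 1.19 for Bcl2a1d and 0.95 for Bcl2a1a, which then missed the 2-fold line. Beside these values, the summed level of 7 neutrophil markers was 115 against 393 RPKM, and that of 7 macrophage markers 367 against 587. Of the neutrophil markers 4 were higher (S100a8, S100a9, Mmp9 and Retnlg). These 4 were under 1 RPKM in normal colon and passed the filter through the adenoma value alone. Ly6g was at 113 and 83.2 RPKM and made up nearly all of the control sum. The defining receptor Cxcr2 was near 0 in both pools (0.0389 and 0.0307). Of the macrophage markers 1 was higher, C1qa (80.8 and 169 RPKM), and none with the length trend subtracted. Their sum was carried by C1qa, C1qb and C1qc, while Csf1r was at 18.1 and 11.4 RPKM and Adgre1 at 7.49 and 5.19 RPKM. The part of these cells in the Bcl2a1 values was not tested.

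Of the 48 genes, 44 passed the filter on low values. The others were Bcl2a1c, Bcl2l10, Hrk and Birc7, and Bcl2l15 passed through its adenoma value alone. As deposited, 11 members (25.0%) were at least 2-fold higher in the adenoma pool, against 10.4% of the 12910 mRNA genes past the filter, and 4 (9.09%) were lower, against 13.1%. With the length trend subtracted, 8 (18.2%) were higher against 5.5%, and 3 (6.82%) lower against 9.95%. At equal sums, 6 (13.6%) were higher against 5.66%, and 9 (20.5%) lower against 23.2%. The share of higher members stood above that of the mRNA genes on each of these scales, and the share of lower members was close to it. Counting the near-identical Bcl2a1 copies as 1 gene left 9 higher among 42. The split of the called members moved with the scale: 73.3% of them were higher as deposited, 72.7% after the length trend was subtracted and 40.0% at equal sums. The median log2 fold change of the members was -0.03, beside -0.17 for the mRNA genes.

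**Figure D1:**
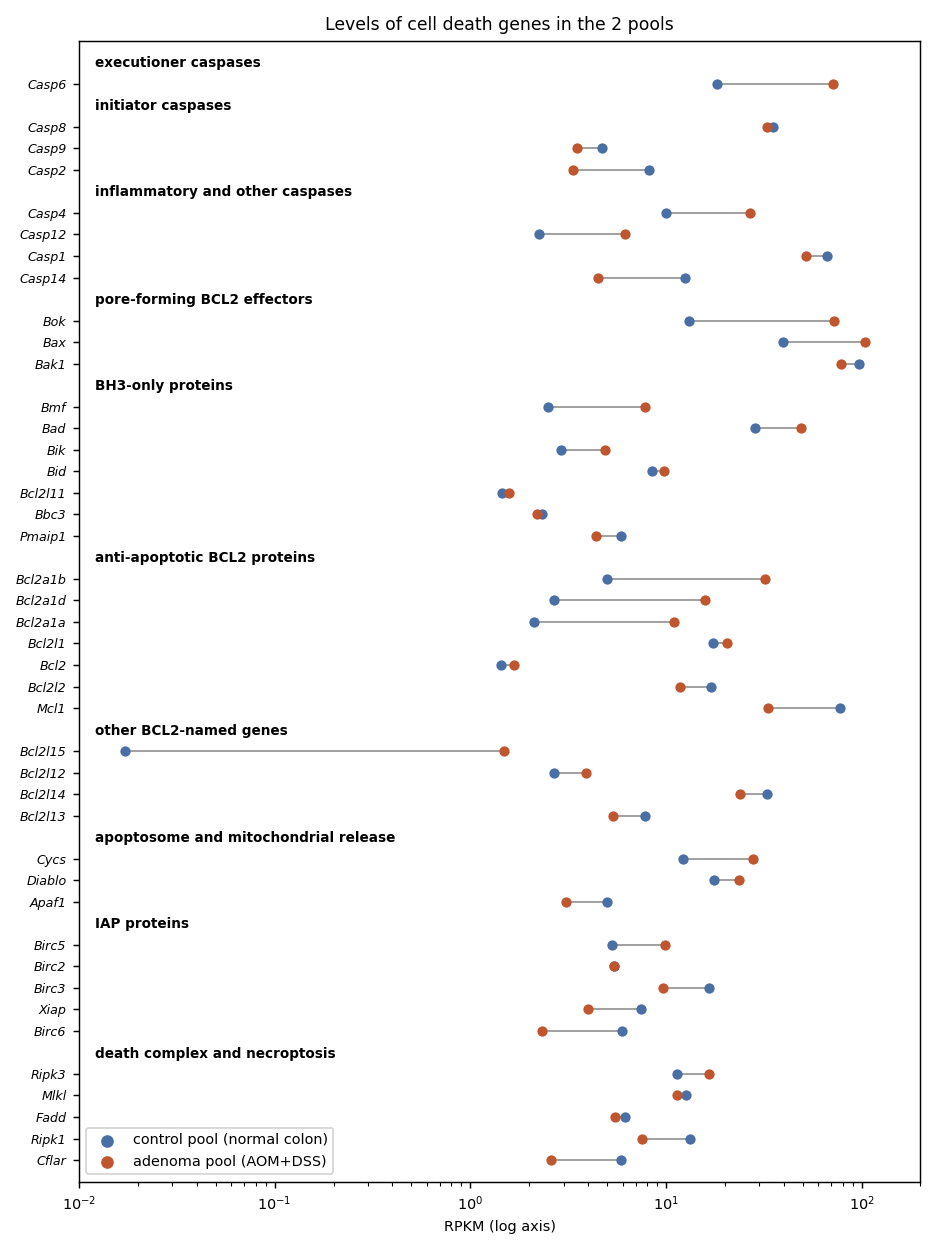
RPKM of members past the filter on a log axis in the control pool and the adenoma pool (1 library each), grouped by role, with a line joining the 2 values of a gene. Bcl2a1b, Bok and Casp6 show long lines to the right (32.0, 72.3 and 71.1 RPKM in the adenoma pool), Bcl2l15 the longest from a single control read, and Mcl1 one of the longer lines to the left (77.6 to 33.2).

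An executioner caspase was among the higher members. Casp6, which cleaves nuclear lamins, was at 18.2 RPKM in normal colon and 71.1 RPKM in the adenoma pool, 3.90-fold higher (3.61 to 4.22). This rested on 784 and 3434 reads, and the log2 difference was 1.91 as deposited, 1.38 with the length trend subtracted and 1.52 at equal sums. Casp6 moved from rank 10 to rank 4 among the 48 genes and was past 2-fold on each of these 3 scales.

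Of the initiator caspases, Casp2, which is activated on the PIDD1 platform, was lower in the adenoma pool, with 8.17 against 3.34 RPKM, 2.44-fold lower (2.16 to 2.77). It lay near the line, with a log2 difference of -1.08 as deposited and -0.91 with the length trend subtracted. Casp8, the initiator of the receptor route, was at 35.2 and 33.0 RPKM, and Casp9, the initiator of the mitochondrial route, at 4.73 and 3.49 RPKM. Both stood under 2-fold on all 3 scales, with Casp8 the more abundant in either pool.

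The inflammatory caspases Casp1, Casp4 and Casp12 are neighbours on chromosome 9, and Casp4 and Casp12 were past 2-fold while Casp1 was not. Casp4 (9:5308828-5336783), the mouse sensor of cytosolic lipopolysaccharide also called caspase 11, was at 9.997 RPKM in normal colon and 27.1 RPKM in the adenoma pool, 2.71-fold higher (2.42 to 3.03). Casp12 (9:5345430-5373032) was at 2.23 and 6.19 RPKM, 2.77-fold higher (2.33 to 3.31). Casp1 (9:5298517-5307265), which matures interleukin 1 beta, was at 66.7 and 51.8 RPKM, a log2 difference of -0.36. The ratio of Casp4 to Casp1 was 0.150 in normal colon and 0.523 in the adenomas. Casp4 missed the 2-fold line with the length trend subtracted (0.81) and at equal sums (0.97), and Casp12 at equal sums (0.82). Casp14, best known from keratinocyte differentiation in skin, was at 12.6 and 4.48 RPKM, 2.81-fold lower (2.48 to 3.19), and stayed past the line on those 3 scales (-1.31, -1.42 and -1.63).

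All 3 pore-forming effectors are expressed in colon, and 2 were higher in the adenoma pool. Bok (1:93685660-93695764), a relative of BAX that is less dependent on the other family members, was at 13.1 RPKM in normal colon and 72.3 RPKM in the adenoma pool, 5.53-fold higher (5.06 to 6.07), from 553 and 3436 reads. Its log2 difference was 2.38 as deposited, 1.86 with the length trend subtracted and 1.99 at equal sums. It moved from rank 16 to rank 3 among the 48 genes, and the ratio of Bok to Bak1 went from 0.135 to 0.924. Bax (7:45461697-45466898) was at 39.9 and 104 RPKM, 2.62-fold higher (2.46 to 2.79). Its log2 difference of 1.36 was under the line on the other scales, with 0.58 when the length trend was subtracted and 0.97 at equal sums. Bak1, the most abundant of the 48 genes in the control pool, was at 96.6 and 78.3 RPKM. Its log2 difference was -0.30 as deposited and -0.39 with the length trend subtracted.

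Of the 8 BH3-only genes, 7 passed the filter and 1 was past 2-fold. Bmf, which is held at the cytoskeleton in attached cells, was at 2.49 RPKM in normal colon and 7.81 RPKM in the adenoma pool, 3.13-fold higher (2.77 to 3.54). Its log2 difference was 1.33 as deposited, 1.71 with the length trend subtracted and 0.99 at equal sums. Bad, which binds BCL2 and BCL-XL when survival signals are withdrawn, was at 28.6 and 49.1 RPKM and was the most abundant of the group. Bik was at 2.91 and 4.89 RPKM (log2 0.59), but at -0.02 with the length trend subtracted. Bid, which caspase 8 cuts to link the receptor route to mitochondria, was at 8.52 and 9.80 RPKM. Its log2 difference of 0.18 turned to -0.17 at equal sums, and its annotated gene overlaps Bcl2l13, so reads in the shared bases cannot be assigned without strand. The remaining ones were under 2-fold, and the intervals of 2 of them hold equal levels. Bcl2l11 (BIM) was at 1.46 and 1.58 RPKM, a ratio of 1.08 (0.902 to 1.30), and the p53 target Bbc3 (PUMA) at 2.34 and 2.20 RPKM, a ratio of 0.940 (0.738 to 1.20). The log2 difference of Bcl2l11 was 0.07 as deposited, 0.48 with the length trend subtracted and -0.16 at equal sums. That of Bbc3 was -0.06, -0.39 and -0.32 on these scales. Pmaip1 (NOXA), which binds MCL1, was at 5.92 and 4.41 RPKM. Hrk, a gene known from neurons, was under 3 reads in both pools.

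Apart from the Bcl2a1 copies, no anti-apoptotic BCL2 gene was past 2-fold higher in the adenoma pool as deposited. Mcl1 (3:95658788-95663176), a short-lived protein that restrains BAK1, was at 77.6 RPKM in normal colon and 33.2 RPKM in the adenoma pool, 2.34-fold lower (2.25 to 2.43). Its log2 difference was -1.20 as deposited, -1.03 with the length trend subtracted and -1.58 at equal sums, and it went from rank 2 to rank 7. Bcl2l1 (BCL-XL) was at 17.4 and 20.6 RPKM, and its log2 difference of 0.23 was -0.14 at equal sums. Bcl2l2 (BCL-W) was at 17.0 and 11.8 RPKM. Bcl2, the founding member of the family, was low in both pools, at 1.43 and 1.68 RPKM. Its log2 difference was 0.14 as deposited, 0.73 with the length trend subtracted and -0.10 at equal sums. Bcl2l10 was at 0.0276 RPKM in normal colon and listed at 0 in the adenoma pool. The ratio of Bax to Mcl1 was 0.514 in normal colon and 3.14 in the adenomas, and that of Bax to Bcl2l1 2.29 and 5.05. Both ratios hold the length trend, as the transcript of Bax (1100 bases) is shorter than those of Mcl1 (3418) and Bcl2l1 (2568). With the trend subtracted the log2 differences were 0.58 for Bax, -1.03 for Mcl1 and 0.18 for Bcl2l1, which lie closer together. These are ratios of transcript levels in whole tissue and say nothing of protein.

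The other genes with a Bcl2 name included 1 past the line. Bcl2l15 was at 0.0171 RPKM in normal colon and 1.49 RPKM in the adenoma pool. The control value is a single read against 98, so the ratio of 87.3 has an interval from 15.3 to 3482. Bcl2l14 (BCL-G) was at 32.8 and 23.9 RPKM and was the most abundant of this group. Bcl2l13, a mitophagy receptor, was at 7.79 and 5.35 RPKM, with a log2 difference of -0.47 as deposited and 0.12 with the length trend subtracted. Bcl2l12 was at 2.68 and 3.93 RPKM (log2 0.42, but -0.38 with the length trend subtracted).

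**Figure D2:**
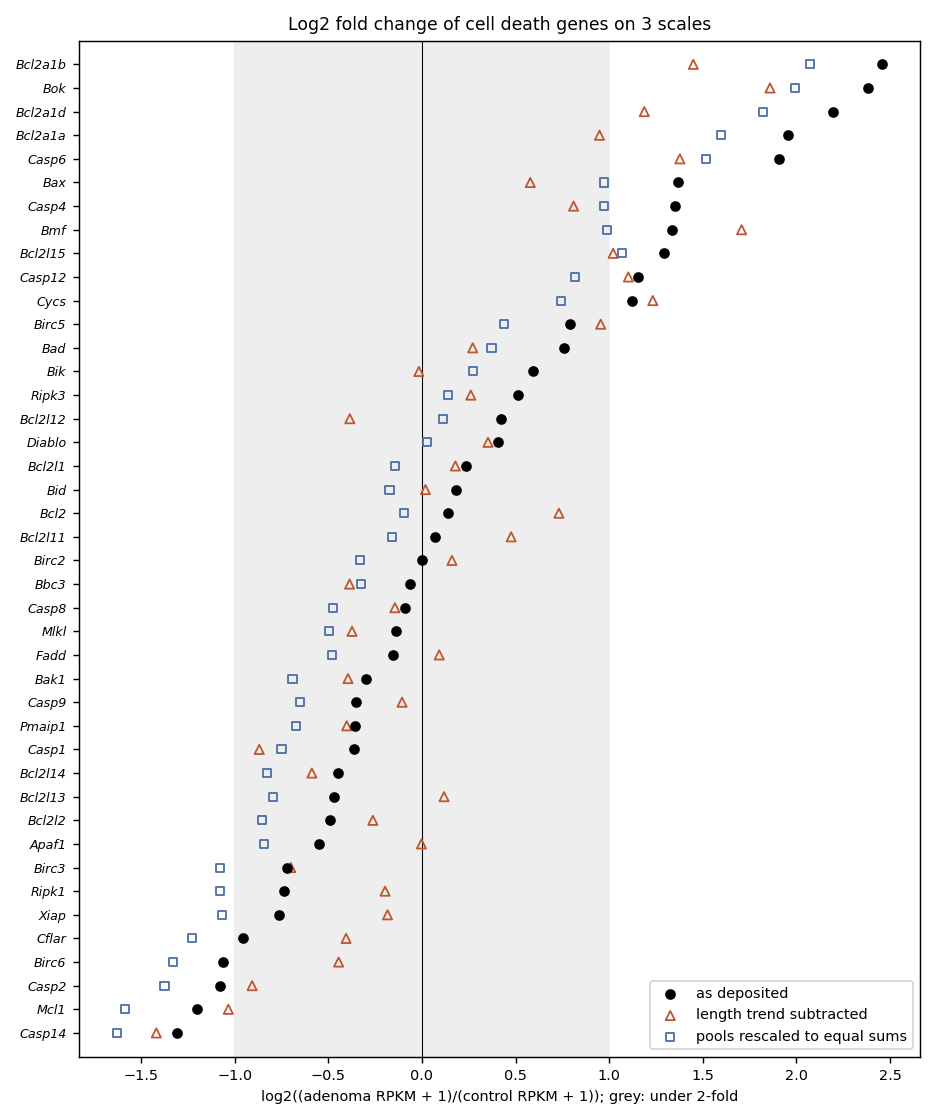
Log2 fold change (adenoma over control, with a pseudocount of 1 RPKM) of members past the filter, drawn as 3 points each: as deposited, with the length trend subtracted and at equal sums, with a grey band where the difference is under 2-fold. Bok, Bcl2a1b, Bcl2a1d and Casp6 lie right of the band with all 3 points, Mcl1 and Casp14 lie left of it with all 3, and Bax leaves it with the deposited value (1.36) alone.

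Of the genes that act after mitochondrial opening, Cycs, which encodes cytochrome c, was at 12.2 RPKM in normal colon and 27.8 RPKM in the adenoma pool, 2.28-fold higher (2.12 to 2.44). Cycs has many processed pseudogenes of near-identical sequence, so its level is uncertain. Its log2 difference was 1.12 as deposited and 0.74 at equal sums. Diablo (SMAC), which is released with cytochrome c and frees caspases from their inhibitors, was at 17.6 and 23.7 RPKM. Apaf1, the scaffold of the apoptosome, was at 4.99 and 3.09 RPKM, a log2 difference of -0.55 that became -0.00 with the length trend subtracted.

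None of the inhibitor of apoptosis genes was past 2-fold higher in the adenoma pool as deposited. Birc6, a very large ubiquitin ligase, was at 5.94 RPKM in normal colon and 2.32 RPKM in the adenoma pool, 2.56-fold lower (2.39 to 2.75). Its transcript, at 15768 bases, is the longest of the lower members, and the log2 difference of -1.06 became -0.44 with the length trend subtracted. Xiap, which inhibits caspases by direct binding, was at 7.47 and 4.0 RPKM, and its log2 difference of -0.76 likewise became -0.18. Birc2 and Birc3 encode cIAP1 and cIAP2, which ubiquitinate RIPK1. They are neighbours on chromosome 9, and Birc2 was at 5.43 RPKM in both pools, a ratio of 0.999 (0.894 to 1.12), while Birc3 was at 16.6 and 9.69 RPKM. Birc5 (survivin), which works in mitosis, was at 5.30 and 9.91 RPKM, a ratio of 1.87 (1.69 to 2.08). Of 8 other cycling cell markers 1 was higher as deposited, Cdk1, and their summed level was 78.8 against 91.8 RPKM. As deposited the log2 difference was positive for 6 of the 8 and negative for 2, Mki67 and Plk1. At equal sums Top2a, Aurka and Aurkb were negative too (-0.34, -0.10 and -0.29). Aurka and Aurkb were also negative with the length trend subtracted (-0.01 and -0.20). The median of the 8 was 0.16 as deposited, 0.22 with the length trend subtracted and -0.20 at equal sums. Mki67 was at 13.2 and 7.73 RPKM, a log2 difference of -0.70 that became -0.08 with the length trend subtracted and -1.05 at equal sums. The part of cycling cells in the Birc5 values was not tested. Birc7 was listed at 0 in both pools. The median log2 difference of the 5 genes past the filter was -0.72 as deposited, -0.18 with the length trend subtracted and -1.07 at equal sums, where 3 of them (Birc3, Birc6 and Xiap) were lower.

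None of the 5 genes of the death complex and necroptosis was past 2-fold as deposited. Cflar, the inhibitor of caspase 8, came nearest, with 5.92 RPKM in normal colon and 2.57 RPKM in the adenoma pool, a plain ratio of control to adenoma of 2.30 (2.08 to 2.55) and, with the pseudocount, a log2 difference of -0.95. It was past the line at equal sums (-1.23) and at -0.40 with the length trend subtracted. Cflar lies next to Casp8 on chromosome 1, and the ratio of Casp8 to Cflar was 5.94 in normal colon and 12.8 in the adenomas. That ratio holds the length trend, and with it subtracted the log2 differences were -0.14 for Casp8 and -0.40 for Cflar. The kinase genes stood on opposite sides of 0. Ripk1 was at 13.2 and 7.56 RPKM (log2 -0.73), and Ripk3 at 11.4 and 16.7 RPKM (log2 0.51). The ratio of Ripk3 to Ripk1 was 0.861 in normal colon and 2.21 in the adenomas. With the length trend subtracted the difference was -0.20 for Ripk1 and 0.26 for Ripk3. At equal sums Ripk1 was past 2-fold lower (-1.08) and Ripk3 was at 0.14. Mlkl, the pore-forming end of the pathway, was at 12.6 and 11.4 RPKM, and the adaptor Fadd at 6.19 and 5.46 RPKM.

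Just inside the 2-fold line as deposited were Birc6 (-1.06) and Casp2 (-1.08), and Cflar (-0.95) was just outside it. On the other side Cycs (1.12) was the nearest inside and Birc5 (0.79) the nearest outside. The 15 members past 2-fold kept their sign under 7 other settings, but Bok, Casp6, Bcl2a1b and Bcl2a1d were the only ones to stay past 2-fold in all 7. Of the 29 members under 2-fold, 12 changed sign in at least 1 setting.

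**Figure D3:**
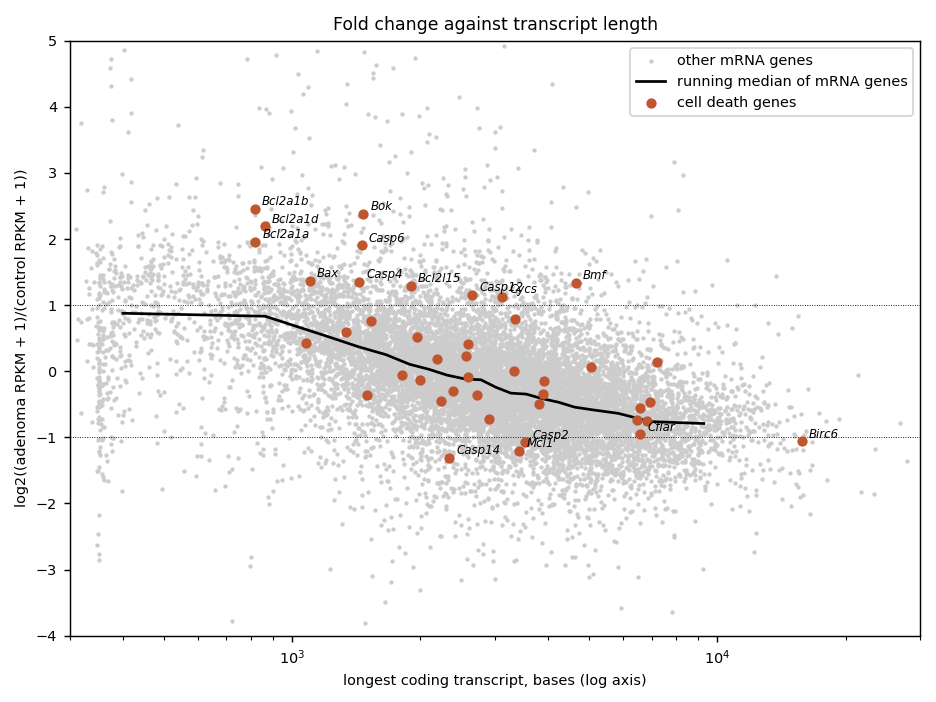
Log2 fold change against transcript length (bases, log axis; longest protein-coding transcript) for mRNA genes past the filter (small points), their running median (line) and the members (large points); a few mRNA genes lie outside the axes. The 11 higher members have a median length of 1456 bases and the 4 lower ones 3473.5, and Bok (log2 2.38), Casp6 (1.91) and the Bcl2a1 copies sit above the line at their length; dotted lines mark 2-fold.

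The plot of fold change against transcript length sets the members beside the trend that runs through the mRNA genes. The 29 members under 2-fold had a median length of 2601 bases, beside 2893.5 for the 12718 mRNA genes with a length. Bmf, with a transcript of 4642 bases, is the longest of the higher members, and its log2 difference was larger with the trend subtracted (1.71) than before (1.33). Bax, Casp4 and Bcl2a1a were the higher members that lost their call with it. Among the lower ones Casp2 and Birc6 lost it.

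Promoters of 5 called members, chosen after their values were seen to show a match to a searched motif, are printed for reference, with the 250 bases before the start of the gene on the gene's strand (RefSeq, GRCm38.p6). Capitals mark a searched motif: in Bcl2a1b (chr9:89199023-89199272) the AP-1 motif TGANTCA, in Casp4 (chr9:5308599-5308848) matches to the kappaB motif, of which a pair overlap, and in Bok (chr1:93685325-93685574), Casp6 (chr3:129901165-129901414) and Mcl1 (chr3:95658471-95658720) the GC box GGGCGG.

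Bcl2a1b: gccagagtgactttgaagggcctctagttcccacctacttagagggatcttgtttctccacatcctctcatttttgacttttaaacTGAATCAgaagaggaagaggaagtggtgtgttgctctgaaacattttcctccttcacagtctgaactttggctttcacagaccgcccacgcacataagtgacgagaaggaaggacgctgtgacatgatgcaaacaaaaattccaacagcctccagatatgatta
Casp4: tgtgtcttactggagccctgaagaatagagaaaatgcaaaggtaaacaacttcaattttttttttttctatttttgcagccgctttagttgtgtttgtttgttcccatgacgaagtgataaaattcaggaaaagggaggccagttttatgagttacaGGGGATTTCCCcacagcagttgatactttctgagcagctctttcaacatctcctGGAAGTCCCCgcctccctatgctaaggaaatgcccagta
Bok: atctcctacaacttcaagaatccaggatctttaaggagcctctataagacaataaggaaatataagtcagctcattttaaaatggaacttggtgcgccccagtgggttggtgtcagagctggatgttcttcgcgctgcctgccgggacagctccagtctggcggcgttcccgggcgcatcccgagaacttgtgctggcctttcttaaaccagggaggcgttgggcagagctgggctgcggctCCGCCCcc
Casp6: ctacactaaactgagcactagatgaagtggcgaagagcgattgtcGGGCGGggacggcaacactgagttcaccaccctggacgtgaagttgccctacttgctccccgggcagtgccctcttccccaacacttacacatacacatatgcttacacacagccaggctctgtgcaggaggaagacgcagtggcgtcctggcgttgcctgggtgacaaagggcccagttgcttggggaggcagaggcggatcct
Mcl1: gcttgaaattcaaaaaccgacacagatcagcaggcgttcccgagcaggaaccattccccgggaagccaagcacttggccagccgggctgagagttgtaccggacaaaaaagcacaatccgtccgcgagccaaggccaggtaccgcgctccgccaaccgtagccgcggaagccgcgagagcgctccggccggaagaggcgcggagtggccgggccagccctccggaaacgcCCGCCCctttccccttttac

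A promoter window of 300 bases, 250 before to 50 after the start, was found for 43 of the 48 genes, and 5 motifs were searched on both strands. The counts that follow are over the members past the filter that have a window: 11 higher, 4 lower and 25 under 2-fold. A member was counted when any of its windows held the motif, while the percentages are of single windows. A gene with several windows has more chances of a match, so counts and percentages are unlike measures. The AP-1 motif TGANTCA was in the windows of Bcl2a1a, Bcl2a1b and Bcl2a1d, which are near-identical copies, in none of the others counted, and in 7.81% of 32851 windows. The kappaB motif was in Casp4 and Bmf among the 11 higher members, in none of the 4 lower ones, in 4 of the 25 under 2-fold and in 8.46% of all windows. The p53 half-site was in Bax and Bmf, in Birc2 and Birc5 of the members under 2-fold, and in 8.36% of all windows. The E-box CACGTG was in Bax, in Bbc3, Casp1 and Ripk3 of the members under 2-fold, and in 7.15% of all windows. The GC box GGGCGG was in 8 of 11 higher members, 3 of 4 lower members and 17 of the 25 under 2-fold, and in 35.66% of all windows. A match describes these letters in this window and is not a measured binding site.

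Other genes of the pathways were taken from lists, each summarised by its count past 2-fold. Beside these counts, 10.4% of the mRNA genes past the filter were higher and 13.1% lower as deposited. These shares were 5.5% and 9.95% with the length trend subtracted, and 5.66% and 23.2% at equal sums. Of the death ligands and receptors 7 of 10 passed the filter and 1 was higher: Tnf, the ligand of the receptor TNFR1, was at 0.962 RPKM in normal colon and 7.09 RPKM in the adenoma pool, 7.38-fold higher (5.43 to 10.2). Tnf passed the filter through its adenoma value alone. Its receptor Tnfrsf1a was at 38.2 and 28.2 RPKM, and the adaptor Tradd, the most abundant of the list, at 60.5 and 54.7 RPKM. Tnfrsf10b, the receptor of TRAIL, was at 2.27 and 1.27 RPKM. Its ligand Tnfsf10 was at 2.25 and 1.99 RPKM.

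Of p53 and its targets 14 of 15 passed the filter, 1 was lower and none higher. Btg2, an antiproliferative gene, was at 42.6 RPKM in normal colon and 18.9 RPKM in the adenoma pool, 2.25-fold lower. Sesn2 was at 3.49 and 1.30 RPKM, Phlda3 at 11.2 and 22.3 RPKM, and Perp, the most abundant of the list, at 73.9 and 73.6 RPKM. The log2 difference was negative for 10 of the 14 and positive for 4, with a median of -0.24, beside -0.17 for the mRNA genes. At equal sums 3 (21.4%) were lower, against 23.2% of the mRNA genes, and none higher. Of the BCL2 family genes that p53 can switch on, Bax was higher, and Bbc3 and Pmaip1 were under 2-fold.

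None of the 8 mitochondrial death factors and none of the 7 caspase substrates and DNA fragmentation genes past the filter was 2-fold apart as deposited. Bnip3, a mitophagy receptor, was at 5.58 and 10.3 RPKM, its relative Bnip3l at 12.7 and 17.9 RPKM, and the flavoprotein gene Aifm1 at 32.8 and 24.3 RPKM. The channel gene Vdac1 was the most abundant of the first list, at 200 and 168 RPKM. Dffb, the nuclease that cuts DNA in apoptosis, was at 3.22 and 1.31 RPKM, with a log2 difference of -0.87 as deposited, and was past 2-fold with the length trend subtracted (-1.07) and at equal sums (-1.08). Its inhibitor Dffa was at 10.4 and 6.46 RPKM. Of the other substrates, Acin1 was at 27.9 and 18.7 RPKM and Parp1 at 20.9 and 28.0 RPKM.

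All 12 necroptosis regulators passed the filter, and 2 were lower as deposited, none with the length trend subtracted and 5 at equal sums. The lower ones were Tab2, an adaptor of the kinase TAK1, at 21.02 RPKM in normal colon and 8.79 RPKM in the adenoma pool, and Tnfaip3 (A20), a ubiquitin-editing brake on this pathway, at 11.0 and 4.60 RPKM. Ticam1 (TRIF) was at 12.999 and 6.09 RPKM, and Rbck1, a subunit of the linear ubiquitin ligase and the most abundant of the list, at 38.6 and 46.4 RPKM.

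Of the inflammasome and pyroptosis genes 8 of 11 passed the filter, with 1 higher and 2 lower. Il1b, the cytokine that CASP1 matures, was at 3.90 RPKM in normal colon and 21.4 RPKM in the adenoma pool. The sensor genes Nlrp6, at 52.9 and 9.21 RPKM (5.75-fold lower), and Nlrp1b, at 4.33 and 1.01 RPKM (4.27-fold lower), went the other way. The adaptor Pycard, the most abundant of the list, was at 164 and 196 RPKM. The sensor Aim2 was at 12.2 and 13.1 RPKM and the cytokine Il18 at 60.0 and 102 RPKM, and both changed sign on another scale.

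Of 5 cytotoxic granule genes 3 passed the filter, and Gzma was higher, at 2.12 and 9.68 RPKM (log2 1.78, and 0.90 with the length trend subtracted). Gzmb was at 2.08 and 3.34 RPKM and Nkg7 at 1.58 and 2.56 RPKM. Their log2 differences of 0.50 and 0.46 were -0.05 and -0.52 with the length trend subtracted. Of the genes for clearance of dead cells 8 of 10 passed the filter and 3 were lower, 2 of them still with the length trend subtracted. Mertk, a receptor on macrophages that binds dying cells, was at 7.12 RPKM in normal colon and 1.23 RPKM in the adenoma pool, 5.79-fold lower. Stab1 was at 7.27 and 2.82 RPKM, and Gas6, the bridging ligand of MERTK and the most abundant of the list, at 171 and 81.9 RPKM. Of the 7 macrophage markers none was 2-fold lower, and as deposited the log2 difference was positive for 5 and negative for 2. The negative ones were Csf1r and Adgre1, at -0.62 and -0.46 as deposited, and at -0.24 and -0.31 with the length trend subtracted. On that scale Cd68, Cd14 and C1qb were negative too (-0.24, -0.12 and -0.13), while C1qa and C1qc stayed positive (0.22 and 0.03). The median of the 7 was 0.44 as deposited and -0.13 with the length trend subtracted. The part of macrophage number in the Mertk and Stab1 values was not tested.

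**Figure D4:**
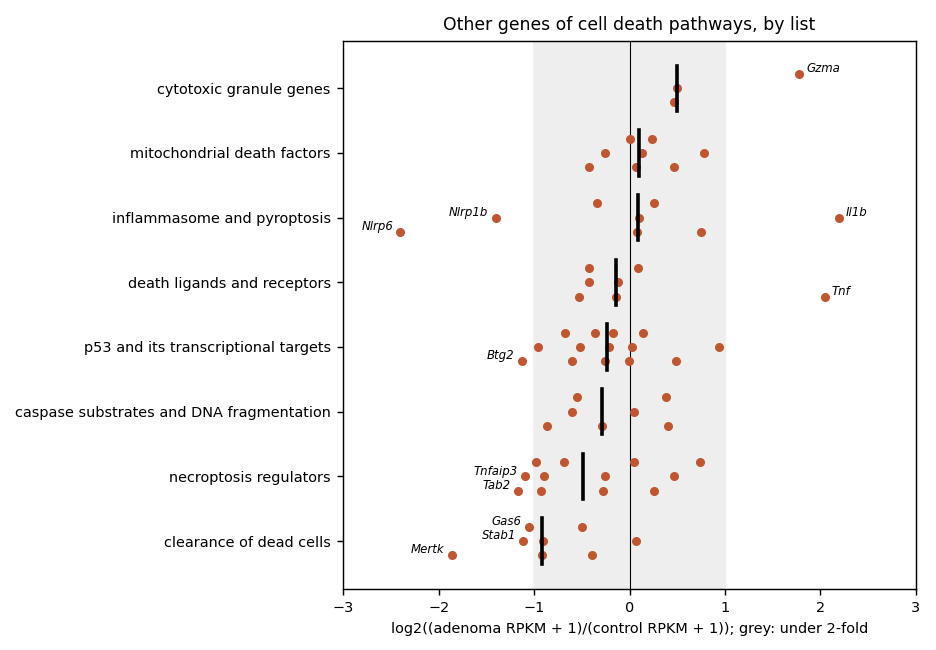
Log2 fold change as deposited (pseudocount of 1 RPKM) of every gene past the filter in each further pathway list; each point is 1 gene, a bar marks the list's median, the grey band is under 2-fold and genes outside it are named. Il1b, Tnf and Gzma lie right of the band (2.19, 2.04 and 1.78), Nlrp6 and Mertk furthest left (-2.40 and -1.86), and the clearance genes have the lowest median (-0.91).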

How the data were processed

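RNA was measured in 2 pools of 6 individuals, 1 library each, per the labels. The authors deposited RPKM values for both pools with a symbol and a type per gene, per the file headers. The aligner and the counting method are not given in the sources used here, nor is the annotation. The submitters' processing notes name the build GRCh37, a human assembly, although the symbols are those of mouse. The labels name both Proton and Illumina sequencing.

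Log2 fold changes were computed with a pseudocount of 1 RPKM among genes that reached 1 RPKM in one pool or both, with a threshold of 2-fold. Read totals were recovered from 183 (control) and 200 (adenoma) short RNA genes. The reads of a gene were recovered from the ratio of its RPKM for 33 members and estimated from GENCODE M21 lengths for 15. Intervals are exact (Clopper-Pearson) 95% intervals of the read ratio, and no fold is given with both pools under 3 reads or with less than 1 read in a pool. The length trend was the running median over 20 bins of the longest protein-coding transcript, fitted on mRNA genes and subtracted, with their median added back. Gene positions come from GENCODE M21 (GRCm38), which need not be the authors' annotation. In the lists, 4 symbols were matched through RefSeq synonyms.

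With 1 library a group, no test was made. The arithmetic was tested on simulated data. Alternatives were a pseudocount of 0.1 or 5, filtering at 5 RPKM or not at all, 3 scalings, the length trend, and thresholds of 1.5-fold and 4-fold. After seeing the data, the longest transcript of any kind and the summed Bcl2a1 copies were added. Members are named with their values, except a few that are counted but not reported singly here, and for each pathway list the 3 genes with the greatest absolute log2 fold change and the most abundant one. A few genes outside that rule (Parp1 or Acin1, Aim2, Il18, Tnfsf10, and epithelial and cell type markers) were picked once their values had been seen. The members, lists and rules were chosen with earlier results of these data known. Python 3.11.15, pandas 2.3.3 and scipy 1.17.1 were used.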

Additional observations from a re-analysis of the deposited data

How the results depend on the processing

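With 1 library a group, no value below has a replicate check, and leaving out a replicate could not be done. No paired analysis was possible because each group holds 1 library. As deposited, 11 members were at least 2-fold higher, 4 lower, and the median log2 fold change was -0.03. Higher members numbered 7 with a pseudocount of 5, 6 at equal sums and 3 at a 4-fold threshold. Lower members numbered 1 with a pseudocount of 5, 9 at equal sums, 1 when scaled by the median ratio, 9 at a 1.5-fold threshold and 0 at 4-fold. The median was -0.33 at equal sums, 0.15 when scaled by the median ratio and 0.0084 with the length trend subtracted. Under the other settings both counts stayed within 1.5 times. With the longest transcript of any kind, which can hold retained introns, 9 were higher and 3 lower. Of the 15 members past 2-fold all kept their sign under 7 settings. Depth limits Bcl2l15, Bcl2a1c, Hrk and Bcl2l10, which had few or no reads in a pool. Levels of the Bcl2a1 copies and of Cycs depend on how reads that match several genes were counted, which was not tested.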

Other observations

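Lists of related genes outside the rule were added after the data had been seen, and the genes named from them were picked with their values in view, so the values are a description only. The Naip genes encode cytosolic sensors of bacterial flagellin and secretion needles that share the BIR domain of the inhibitor of apoptosis proteins. All 4 passed the filter, and 3 were lower in the adenoma pool as deposited. Naip1 was at 23.0 RPKM in normal colon and 7.21 RPKM in the adenoma pool, 3.19-fold lower (2.99 to 3.40). Naip6 was at 9.58 and 2.72 RPKM, 3.52-fold lower (3.21 to 3.86), and Naip5 at 7.80 and 2.95 RPKM, 2.64-fold lower (2.38 to 2.94). Naip2 was at 17.5 and 11.96 RPKM. The median log2 difference of the 4 was -1.33 as deposited and -0.83 with the length trend subtracted, when Naip1 alone stayed past 2-fold. These genes are close paralogs, so their single levels are uncertain.

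The BAG genes encode co-chaperones, of which BAG1 was named for binding BCL2. Bag1 was at 120 RPKM in normal colon and 225 RPKM in the adenoma pool, a ratio of 1.88 and a log2 difference of 0.91. Bag3 was at 21.3 and 9.90 RPKM, 2.15-fold lower (1.98 to 2.34), and was the only one of the 6 past 2-fold. Tmbim6 (BAX inhibitor 1), a survival protein of the endoplasmic reticulum, was at 306 and 155 RPKM, a ratio of control to adenoma of 1.97 (1.92 to 2.01), and its log2 difference was -0.97 as deposited, -1.05 with the length trend subtracted and -1.37 at equal sums. Of the 7 genes listed with it, itself included, 5 passed the filter and none was past 2-fold as deposited. Tmbim4 and Faim had positive log2 differences (0.36 and 0.85), which were -0.61 and -0.01 with the length trend subtracted. Among 7 genes of CARD adaptors and their partners, Card10 was at 8.85 and 3.56 RPKM, 2.48-fold lower (2.25 to 2.75), and under 2-fold with the length trend subtracted (log2 -0.73). None of 4 death-associated kinases was past 2-fold as deposited.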
